A study of Mus musculus with 12 samples.

Results

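The unfolded protein response (UPR) and the protein-folding machinery of the endoplasmic reticulum (ER) were followed in muscle macrophages through 35 genes of the 55414 gene IDs in the count table. These genes were chosen by name for their role and not by their values, though earlier results of these data were known. They comprise 7 stress sensors and signalling genes, 10 lumenal Hsp70/Hsp90 chaperones and co-chaperones, 2 lectin chaperones, 6 disulfide enzymes, 8 genes of ER-associated degradation (ERAD) and 2 subunits of the translocon. RNA-seq was performed on t-CD45+CD11b+F4/80+CD64+ macrophages sorted from the digested calf muscle of C57BL6J wild type males, 8 to 12 weeks old, whose femoral artery had been ligated and excised (hindlimb ischemia). Muscle was taken on day 1, 2, 4 or 7 post injury (dpi), with 3 libraries per day, 12 in all, and no uninjured muscle, so every comparison is between days after the same surgery. Whether mice were pooled for a library is not given in the sources used here, so the P values measure a spread between libraries that may be technical.

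The ER is where secreted and membrane proteins enter the secretory pathway, fold and receive their disulfide bonds. When unfolded proteins build up, 3 sensors in its membrane respond: IRE1α (Ern1), which splices the mRNA of Xbp1, PERK (Eif2ak3), which phosphorylates the initiation factor eIF2α and thereby favours translation of Atf4, and ATF6, which is cut to release a transcription factor. XBP1 and ATF6 act on chaperone and ERAD genes, while ATF4 acts on Ddit3 and Ppp1r15a. In macrophages this machinery carries the load of secreted cytokines, complement and lysosomal enzymes.

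Levels are given as CPM, a gene's share of the counts of its library after TMM scaling, and levels of different genes are compared as RPKM, that is CPM per kilobase of exon. A log2 fold change (log2FC) above 0 means higher on the later day. A gene was called higher or lower at a false discovery rate (FDR) under 0.05 in edgeR's quasi-likelihood F test over 14310 genes, and a differentially expressed gene (DEG) also had an absolute log2FC above 1. Libraries held 19528316 to 33599472 counts, of which a single gene without a symbol took 14.8% to 55.7%. Its share was 52.9% to 55.7% at 1 dpi, 40.3% to 46.0% at 2 dpi, 45.0% to 49.7% at 4 dpi and 14.8% to 30.1% at 7 dpi. The members together took 0.55% to 1.33% of the counts left without that gene. TMM factors differed by day as well, at 0.65 to 0.73 at 1 dpi and 1.35 to 1.70 at 7 dpi. The labelled cell type was checked by 8 macrophage markers, which were all detected on every day and summed to 5657 to 14820 CPM per library, including Fcgr1, which encodes CD64, and Adgre1, which encodes F4/80. Most of each sum was Lyz2 (3009 to 11690 CPM). Adgre1 rose from 245 to 316.5 CPM at 1 dpi to 578 to 775 CPM at 7 dpi, and Ptprc, which encodes CD45, rose too. Fcgr1 fell between these days from 373.5 to 525 CPM to 118 to 164 CPM. Itgam, which encodes CD11b, fell from 169 to 191 CPM to 31.1 to 44.3 CPM.

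Promoters of UPR genes are known for the ER stress response element (ERSE), a CCAAT box and a CCACG box held 9 bases apart, to which ATF6 and XBP1 bind together with NF-Y. The 250 bases before the RefSeq start of each gene were searched on both strands for ERSE (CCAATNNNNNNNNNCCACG), ERSE-II (ATTGGNCCACG), the core of the XBP1 element (TGACGTGG) and the C/EBP-ATF element of ATF4 targets (TGATGNAAT). The ERSE, ERSE-II and XBP1 core share the CCACG box, so a match to one can overlap another. A promoter was found for 29 of the 35 members, and none for Atf6, Manf, Hspa13, Sec61a1, Hyou1 and Derl1. ERSE was found in 9 of the 29 members (31.0%), against 37 of all 32851 promoters searched (0.113%). Since the element was defined on genes of this kind, the share describes the members and is no finding of these libraries. Of the 10 members with a promoter that fell from 2 to 4 dpi, 5 held it (Hspa5, Hsp90b1, Pdia6, Dnajc3 and Creld2), and of the 18 other members tested 3 held it (Calr, Canx and Syvn1). Derl3, which was too low to test, held the ninth. The stretches around the boxes are printed for the 5 members that fell and for Calr and Syvn1, which were called lower from 4 to 7 dpi, to show the element with the bases around it. The spacing of the boxes is that of the search. The coordinates are RefSeq's, in GRCm38.p6, each sequence reads 5′ to 3′ along its gene, and capitals mark the 2 boxes, which read CGTGG and ATTGG where the element lies on the other strand.
Hspa5, chr2:34772010-34772058, plus strand: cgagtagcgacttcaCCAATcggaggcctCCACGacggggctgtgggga
Hsp90b1, chr10:86705518-86705671, minus strand: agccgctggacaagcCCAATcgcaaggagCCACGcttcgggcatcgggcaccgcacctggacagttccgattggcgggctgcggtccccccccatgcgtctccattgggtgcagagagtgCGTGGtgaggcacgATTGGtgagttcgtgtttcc
Pdia6, chr12:17266476-17266524, plus strand: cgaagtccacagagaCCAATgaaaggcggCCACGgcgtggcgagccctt
Dnajc3, chr14:118937812-118937860, plus strand: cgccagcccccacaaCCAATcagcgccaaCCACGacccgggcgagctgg
Creld2, chr15:88819505-88819553, plus strand: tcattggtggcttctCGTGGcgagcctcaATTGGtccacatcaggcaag
Calr, chr8:84847060-84847108, minus strand: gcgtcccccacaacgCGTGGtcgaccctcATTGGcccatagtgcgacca
Syvn1, chr19:6046517-6046565, plus strand: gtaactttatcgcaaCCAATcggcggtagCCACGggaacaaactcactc
Hsp90b1 held 2 matches, 1 on each strand, and the other 6 genes held 1 each. Of the 6 members with a promoter that fell from 4 to 7 dpi, 2 held ERSE (Calr and Syvn1). Ddit3 and Ppp1r15a, which rose at this step, held neither ERSE nor ERSE-II. Whether an element goes with the direction of change was not tested. Herpud1, which also rose from 4 to 7 dpi, held no ERSE but was the only member with ERSE-II, found in 0.0304% of all promoters.
Herpud1, chr8:94386362-94386402, plus strand: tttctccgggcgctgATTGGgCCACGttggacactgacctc
The XBP1 core was found before 1 of 3 starts of Txndc5 and in no other member (0.563% of all promoters). The C/EBP-ATF element was found in none of the 29, Ddit3 and Ppp1r15a included (0.816% of all promoters), which says only that these letters are not in this window.

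Most members were highest in the first days and fell to their lowest level at 7 dpi. Derl3 did not pass the filter on low counts, at 0 to 0.83 CPM, and 34 members were tested. Over the 4 days 31 of the 34 differed, where 61.5% of all genes tested did, and Atf6, Derl2 and Wfs1 did not pass. By mean CPM 12 members were highest at 1 dpi, 17 at 2 dpi, 1 at 4 dpi (Derl2) and 4 at 7 dpi (Eif2ak3, Ddit3, Ppp1r15a and Herpud1). Of all genes tested 23.8%, 19.8%, 20.95% and 35.4% were highest on these days. The lowest mean lay at 7 dpi for 28 of the 34 (82.4%), and for 31.1% of all genes tested. Per length the 4 most abundant members at 1 dpi were chaperones and disulfide enzymes. On that day P4hb reached 301 ± 65.7 RPKM (SD, n = 3), Hspa5 295 ± 44.9, Calr 221 ± 9.16 and Pdia3 195 ± 32.8, and the first 2 did not differ beyond their spread. The sensor Atf6 stood at 10.8 ± 1.32 RPKM, near the chaperones Hyou1 at 9.14 ± 0.416 and Hspa13 at 7.90 ± 1.97. The other sensors were lower, Ern1 at 4.09 ± 0.603 and Eif2ak3 at 0.612 ± 0.133 on that day. Xbp1, at 79.7 ± 12.3 RPKM, was the most abundant of the signalling genes.

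**Figure D1:**
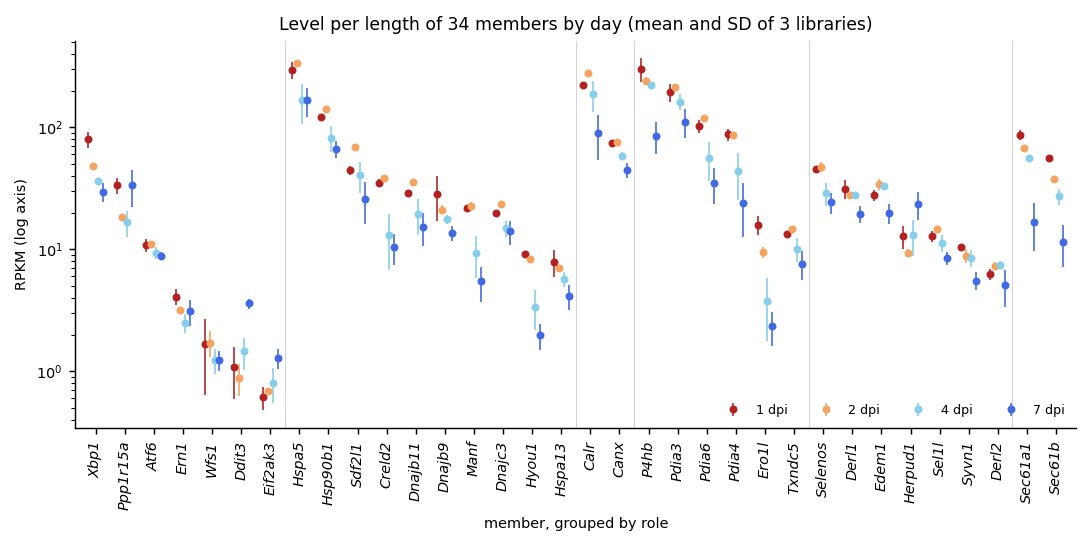
Level per length of the 34 members tested, as RPKM on a log axis, with 1 point for the mean of the 3 libraries of a day, bars for the SD, and grey lines between roles. Chaperones such as Hspa5 and Calr lie far above the sensors Eif2ak3 and Ern1, and the 7 dpi point lies lowest in 28 members.

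Calls were made for some members at 1 step and for some at more. From 1 to 2 dpi no member was higher by edgeR (6.89% of all genes were), DESeq2 or limma-voom, 1 had an unadjusted P under 0.05 (Sdf2l1), and 2 were lower, Xbp1 and Ppp1r15a (5.6% of all genes), with no DEG in either direction (5.09% of all genes higher, 3.97% lower). Without the filter on low counts, or with only the 6 libraries of these days, edgeR called 1 or more members higher. With those 6 libraries more members were lower too, and the cause was not tested. From 2 to 4 dpi no member was higher by any of these tools (10.8% of all genes by edgeR) or at an unadjusted P under 0.05, and 12 were lower (8.7%), of which 6 were DEGs (3.88%, against 8.02% for higher DEGs): Hspa5, Pdia6, Manf, Creld2, Hyou1 and Ero1l. The other 6 were Hsp90b1, Pdia4, Dnajb11, Dnajc3, Sdf2l1 and Selenos, so that 8 of the 10 lumenal chaperones and 3 of the 6 disulfide enzymes fell at this step. From 4 to 7 dpi 10 members were lower (14.6% of all genes), of which Calr, P4hb, Sec61a1 and Sec61b were DEGs (5.2%), and Ddit3, Ppp1r15a and Herpud1 were higher (10.9%), the first 2 as DEGs (7.44%). Pdia4, Manf and Hyou1 were called lower at both of these steps, and whether a member's decreases differed between steps was not tested. The counts from 4 to 7 dpi differed by tool, with 9 members lower and 4 higher by DESeq2 and 14 lower and 4 higher by limma-voom. From 1 to 2 dpi 3 members were lower by DESeq2. The median log2FC of the 34 members was 0.03 for the step to 2 dpi, -0.40 for that to 4 dpi and -0.42 for that to 7 dpi, against 0.01, 0.04 and -0.03 over all genes.

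Across the whole course, from 1 to 7 dpi, 26 members were lower (23.3% of all genes) and 3 were higher, Eif2ak3, Ddit3 and Herpud1 (25.0%). Lower DEGs were Calr, Pdia4, Pdia6, P4hb, Dnajb9, Manf, Creld2, Hyou1, Xbp1, Sec61a1, Sec61b and Ero1l (12 of 34, against 14.0% of all genes), and higher DEGs were Eif2ak3 and Ddit3 (19.7%). The median log2FC of the members was -0.84, and 0.16 over all genes. Without 1 dpi replicate 1, the lower calls from 1 to 7 dpi became 20, and without 7 dpi replicate 2 they became 24. Without 1 dpi replicate 2 the calls of Hspa5, Dnajc3, Sdf2l1, Edem1 and Sel1l were lost. With each library left out in turn, 7 of the 29 calls were lost at least once. These were the 5 just named, Derl1 and Pdia3. Both comparisons with 4 dpi rested on single libraries in part. The 12 lower calls from 2 to 4 dpi became 7, 8 and 7 without 2 dpi replicate 1, 2 and 3, 14 when 4 dpi replicate 1 was left out, and 5 without 4 dpi replicate 2 or replicate 3, and 5 held in every case (Pdia6, Manf, Creld2, Hyou1 and Ero1l). The 10 lower calls from 4 to 7 dpi became 6 without 4 dpi replicate 1, 5 when 7 dpi replicate 2 was left out and 14 without 7 dpi replicate 3, and the 3 higher calls became 1 without 4 dpi replicate 1. From 1 to 2 dpi both lower calls were lost without 1 dpi replicate 1 or any single 2 dpi library.

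**Figure D2:**
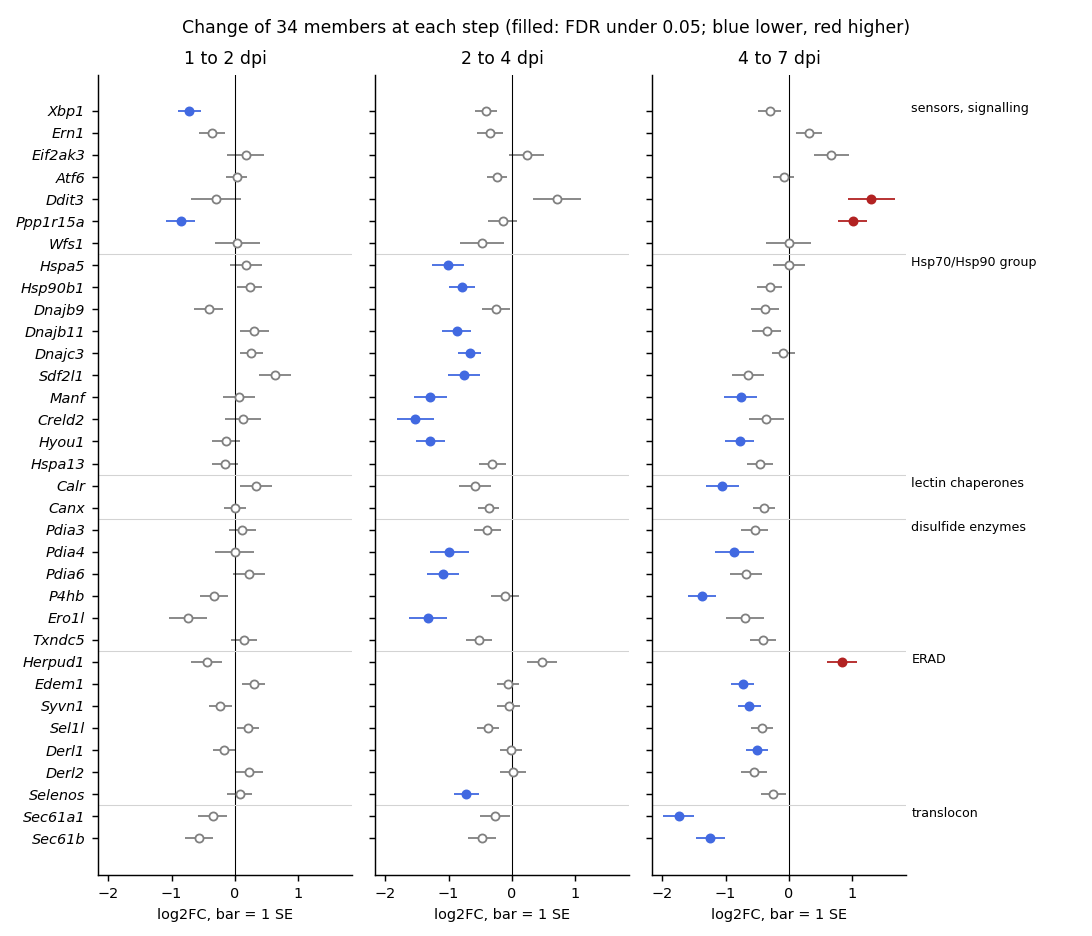
Log2FC of the 34 members tested (x axis, bars of 1 SE) from 1 to 2, 2 to 4 and 4 to 7 dpi, ordered by role, with filled points at FDR under 0.05, blue for lower and red for higher. Blue points gather among the Hsp70/Hsp90 group and the disulfide enzymes from 2 to 4 dpi and at Calr, P4hb, ERAD and the translocon from 4 to 7 dpi, where Ddit3, Ppp1r15a and Herpud1 are red.

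Among the sensors and their signalling genes, Xbp1 fell early, and Ddit3 and Ppp1r15a rose late. Xbp1, the transcription factor activated by IRE1α splicing, was at 303, 226 and 247 CPM at 1 dpi, 156, 152 and 162 CPM at 2 dpi, 120, 118 and 116 CPM at 4 dpi and 76.5, 102 and 108 CPM at 7 dpi. All 1 dpi libraries lay above all 2 dpi libraries, and every step down left the days apart. Its level fell from 1 to 2 dpi (log2FC -0.72, SE 0.18, FDR = 0.0136) and was a DEG over the whole course (log2FC -1.43, SE 0.18, FDR = 1.2e-05). Counts per gene do not separate its spliced from its unspliced mRNA. Without 1 dpi replicate 1, the highest library, or without any single 2 dpi library the early call was lost, with FDR up to 0.0784.

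Ddit3, which encodes the transcription factor CHOP, was at 1.89, 2.71 and 1.01 CPM at 1 dpi, 1.92, 1.04 and 1.58 CPM at 2 dpi, 2.33, 1.86 and 3.29 CPM at 4 dpi and 6.86, 5.85 and 5.79 CPM at 7 dpi. It was low throughout, with 21 to 254 counts per library, and the 3 libraries of 7 dpi lay above all others. Ddit3 rose from 4 to 7 dpi (log2FC 1.31, SE 0.37, FDR = 0.0177) and from 1 to 7 dpi (log2FC 1.72, SE 0.38, FDR = 0.00144). The later step lost its call without 4 dpi replicate 1, 4 dpi replicate 2 or 7 dpi replicate 1 (FDR up to 0.0652), and the 1 to 7 dpi call held in all 12 cases. The antisense-strand neighbour Mars shares 3.97% of the exon bases of Ddit3, and unstranded counting cannot separate the reads there. Eif2ak3, the sensor PERK itself, was at 3.93, 2.79 and 4.34 CPM at 1 dpi, 4.17, 4.18 and 4.05 CPM at 2 dpi, 3.30, 6.44 and 4.87 CPM at 4 dpi and 9.34, 6.90 and 6.92 CPM at 7 dpi. It was higher at 7 than at 1 dpi (log2FC 1.07, SE 0.29, FDR = 0.00545), with no overlap between these days, while no single step passed by edgeR. From 4 to 7 dpi its days did not overlap either (log2FC 0.67, SE 0.28, FDR = 0.0862). Of its exon bases 8.05% overlap Gm43292 on the other strand, which had 53 counts in all libraries.

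Ppp1r15a, the phosphatase subunit GADD34 that reverses eIF2α phosphorylation, was high at both ends of the course: 115, 85.04 and 94.2 CPM at 1 dpi, 50.9, 55.6 and 55.5 CPM at 2 dpi, 39.5, 62.3 and 44.95 CPM at 4 dpi and 78.2, 137 and 80.5 CPM at 7 dpi. The 2 and 4 dpi libraries all lay below those of 1 and 7 dpi. Its level fell from 1 to 2 dpi (log2FC -0.86, SE 0.23, FDR = 0.0204) and rose from 4 to 7 dpi (log2FC 1.01, SE 0.23, FDR = 0.00601), and the comparison of 1 with 7 dpi did not pass (log2FC 0.01, SE 0.23, FDR = 0.982). The first of these calls was lost without 1 dpi replicate 1 or any 2 dpi library (FDR up to 0.094), the second in no case. Ern1 ranged from 17.8 to 37.6 CPM over all libraries and passed over the 4 days together (FDR = 0.0472) but at no single step. Atf6 ranged from 75.2 to 112 CPM (log2FC -0.29, SE 0.16, FDR = 0.154 from 1 to 7 dpi). Wfs1, an ER membrane protein that restrains ATF6 signalling, ranged from 3.65 to 10.8 CPM with its highest value in 1 dpi replicate 3.

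**Figure D3:**
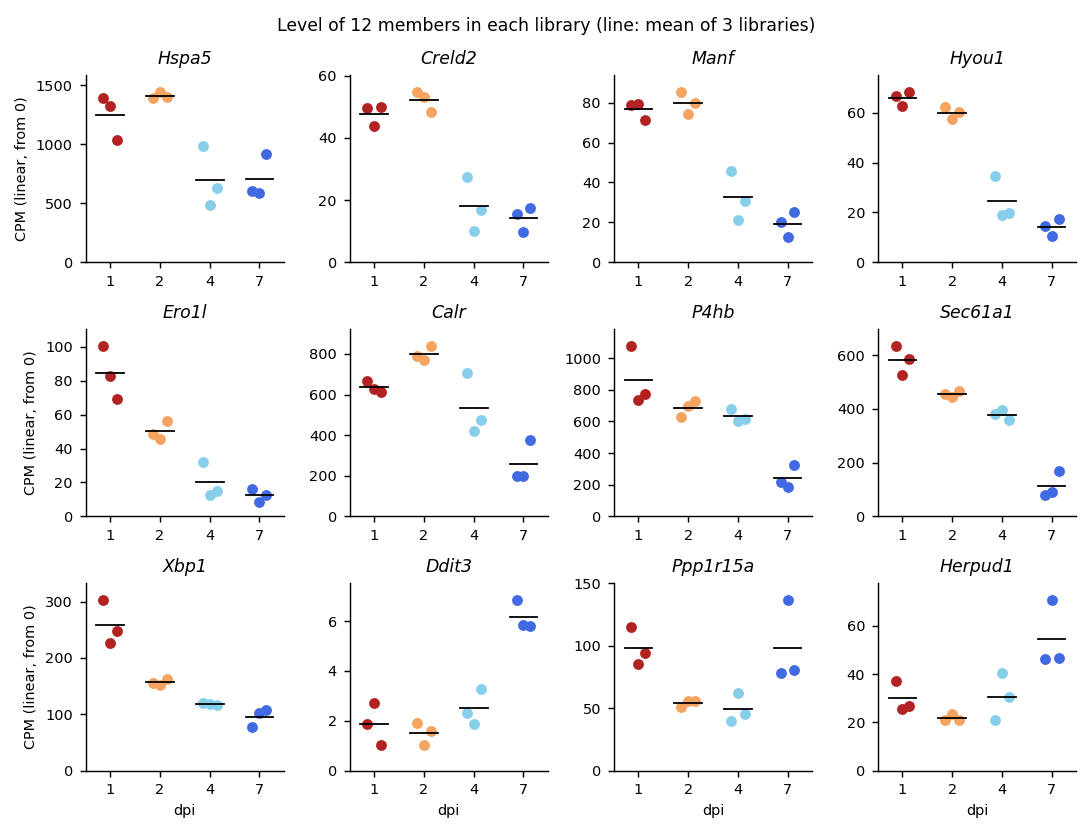
CPM of 12 members in each of the 12 libraries (linear axes from 0, days on the x axis, 1 point per library, line at the mean of 3). Hspa5, Creld2, Manf, Hyou1 and Ero1l drop between 2 and 4 dpi, Calr, P4hb and Sec61a1 between 4 and 7 dpi, Xbp1 declines from 1 dpi, and Ddit3, Ppp1r15a and Herpud1 are higher at 7 than at 4 dpi.

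In the fit of all 12 libraries none of the 10 lumenal Hsp70/Hsp90 chaperones and co-chaperones passed from 1 to 2 dpi. Of all genes 6.89% were higher and 5.6% lower at that step. Sdf2l1 alone among the 10 had an unadjusted P under 0.05 there, and 8 fell from 2 to 4 dpi (8.7% of all genes). Hspa5 (BiP), the main Hsp70 of the ER lumen and the usual gauge of the UPR, was at 1390, 1322 and 1033 CPM at 1 dpi, 1390, 1447 and 1403 CPM at 2 dpi, 985, 488 and 631 CPM at 4 dpi and 606, 583 and 918 CPM at 7 dpi. Its 2 dpi libraries lay close together and above all later ones, and 4 dpi replicate 1 stood highest of its day. It was a DEG from 2 to 4 dpi (log2FC -1.01, SE 0.26, FDR = 0.0114) and did not pass from 4 to 7 dpi (log2FC 0.00, SE 0.25, FDR = 0.997). Without 4 dpi replicate 2 or 3 that call was lost (FDR up to 0.0692). Hsp90b1 (GRP94), the Hsp90 of the ER, was at 500, 496 and 463 CPM at 1 dpi, 553, 610 and 555 CPM at 2 dpi, 419, 268 and 306 CPM at 4 dpi and 272, 225 and 309 CPM at 7 dpi. Its level fell from 2 to 4 dpi (log2FC -0.79, SE 0.20, FDR = 0.0105), with the days apart, and this call too was lost without 2 dpi replicate 2, 4 dpi replicate 2 or 4 dpi replicate 3 (FDR up to 0.0701). The pseudogene 1810014B01Rik on the other strand shares 10.3% of its exon bases and had 394 counts in all libraries.

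Hyou1 (GRP170), the exchange factor that recharges BiP, was at 66.96, 62.7 and 68.5 CPM at 1 dpi, 62.3, 57.6 and 60.2 CPM at 2 dpi, 34.6, 19.04 and 19.98 CPM at 4 dpi and 14.7, 10.7 and 17.6 CPM at 7 dpi. The drop from 2 to 4 dpi (log2FC -1.29, SE 0.23, FDR = 0.00101) was followed by one from 4 to 7 dpi (log2FC -0.78, SE 0.23, FDR = 0.0216), and only the later call depended on single libraries (4 dpi replicate 1 or 7 dpi replicate 2, FDR up to 0.14) and on fitting all 12 together, since it was lost with only the 6 libraries of these days (FDR = 0.104). It was a DEG over the whole course as well (log2FC -2.20, SE 0.24, FDR = 2.43e-06). Creld2, a disulfide isomerase-like protein induced by ER stress, was at 49.7, 43.8 and 49.8 CPM at 1 dpi, 54.9, 53.2 and 48.3 CPM at 2 dpi, 27.3, 9.94 and 16.9 CPM at 4 dpi and 15.4, 9.70 and 17.4 CPM at 7 dpi. Each 4 dpi library lay below each 2 dpi library, and among the members it had the largest decrease at this step (log2FC -1.52, SE 0.29, FDR = 0.00152). Manf, a secreted ER-stress protein that binds BiP, was at 79.1, 79.4 and 71.5 CPM at 1 dpi, 85.6, 74.6 and 79.96 CPM at 2 dpi, 45.7, 21.4 and 30.9 CPM at 4 dpi and 20.2, 12.7 and 24.99 CPM at 7 dpi. It was a DEG from 2 to 4 dpi (log2FC -1.29, SE 0.26, FDR = 0.00239), and lower again at 7 dpi (log2FC -0.76, SE 0.26, FDR = 0.0395) although 4 dpi replicate 2 overlapped the 7 dpi range. The last call was lost in 9 of 12 cases when 1 library was left out, with RLE factors, without the unnamed gene and with only the 6 libraries of these days (FDR up to 0.221).

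Co-chaperones with a J domain hand clients to BiP. Dnajb11 (ERdj3) was at 98.2, 91.5 and 88.9 CPM at 1 dpi, 115, 110 and 120 CPM at 2 dpi, 85.5, 46.9 and 55.8 CPM at 4 dpi and 48.5, 34.9 and 64.2 CPM at 7 dpi, and Dnajc3 (p58IPK) at 106, 103 and 95.9 CPM at 1 dpi, 129, 117 and 119 CPM at 2 dpi, 89.4, 70.8 and 69.4 CPM at 4 dpi and 86.2, 54.5 and 75.2 CPM at 7 dpi. In both, all 2 dpi libraries lay above all 1 dpi and 4 dpi libraries, and the fall from 2 to 4 dpi was called for Dnajb11 (log2FC -0.87, SE 0.23, FDR = 0.0146) and for Dnajc3 (log2FC -0.67, SE 0.19, FDR = 0.0186). Dnajb9 (ERdj4), which also restrains IRE1α, was instead at 105, 59.8 and 51.5 CPM at 1 dpi, 49.2, 58.1 and 54.4 CPM at 2 dpi, 49.5, 42.1 and 43.95 CPM at 4 dpi and 37.4, 29.2 and 37.6 CPM at 7 dpi. It was highest in 1 dpi replicate 1 and passed only over the whole course (log2FC -1.05, SE 0.23, FDR = 0.00126). Sdf2l1, a partner of ERdj3, was at 45.1, 48.3 and 53.99 CPM at 1 dpi, 72.9, 74.6 and 80.1 CPM at 2 dpi, 59.9, 36.2 and 38.6 CPM at 4 dpi and 30.7, 17.01 and 38.6 CPM at 7 dpi. It peaked at 2 dpi with the days apart and fell to 4 dpi (log2FC -0.75, SE 0.25, FDR = 0.0454). Without single libraries the 2 to 4 dpi calls were lost in 4 of 12 cases for Dnajb11, 5 for Dnajc3 and 9 for Sdf2l1. Hspa13, an Hsp70 of microsomes, was at 69.5, 45.1 and 47.5 CPM at 1 dpi, 47.5, 48.9 and 48.5 CPM at 2 dpi, 43.6, 33.2 and 40.2 CPM at 4 dpi and 35.4, 22.0 and 27.8 CPM at 7 dpi. It declined gradually and was lower only from 1 to 7 dpi (log2FC -0.92, SE 0.21, FDR = 0.00177).

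The lectin chaperones calreticulin and calnexin, which hold glycoproteins until they are folded, were both lower at 7 than at 1 dpi (23.3% of all genes). Calr was at 665, 627 and 614 CPM at 1 dpi, 791, 769 and 840 CPM at 2 dpi, 708, 420 and 475 CPM at 4 dpi and 197, 200 and 377 CPM at 7 dpi. The 2 dpi libraries were the highest and the 7 dpi libraries the lowest, with 4 dpi replicate 1 standing between the levels of 1 and 2 dpi. It was a DEG from 4 to 7 dpi (log2FC -1.05, SE 0.25, FDR = 0.00853), a call that held without each library in turn but not when only the 6 libraries of these days were fitted (FDR = 0.0539). Canx was at 360, 360 and 335 CPM at 1 dpi, 364, 333 and 360 CPM at 2 dpi, 290, 252 and 276 CPM at 4 dpi and 233, 176 and 216 CPM at 7 dpi. No single step passed, with near equal values from 2 to 4 dpi (log2FC -0.37, SE 0.17, FDR = 0.142) and from 4 to 7 dpi (log2FC -0.39, SE 0.17, FDR = 0.101), and from 1 to 7 dpi it was lower (log2FC -0.76, SE 0.17, FDR = 0.00172).

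The 6 disulfide enzymes were all lower from 1 to 7 dpi (23.3% of all genes), with a median log2FC of -1.68 (0.16 over all genes). Ero1l, the oxidase that recharges protein disulfide isomerase and is also induced by hypoxia, was at 101, 82.7 and 69.5 CPM at 1 dpi, 48.6, 45.8 and 56.2 CPM at 2 dpi, 32.2, 12.9 and 14.9 CPM at 4 dpi and 16.03, 8.35 and 12.9 CPM at 7 dpi. It stepped down on each day, and the days did not overlap up to 4 dpi. Its fall was called from 2 to 4 dpi (log2FC -1.32, SE 0.30, FDR = 0.00593) and was the largest of the members from 1 to 7 dpi (log2FC -2.76, SE 0.32, FDR = 4.54e-06). P4hb, the disulfide isomerase PDI, was at 1078, 734 and 775 CPM at 1 dpi, 627, 699 and 726 CPM at 2 dpi, 678, 600 and 618 CPM at 4 dpi and 220, 187 and 325 CPM at 7 dpi. No step to 4 dpi passed, and it then fell (log2FC -1.37, SE 0.23, FDR = 0.000999), with the highest 7 dpi library well below the lowest 4 dpi library.

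Pdia6, a PDI relative that also acts on IRE1α, was at 407, 409 and 331 CPM at 1 dpi, 441, 454 and 445 CPM at 2 dpi, 296, 159 and 177 CPM at 4 dpi and 118, 96.5 and 180 CPM at 7 dpi. It was a DEG from 2 to 4 dpi (log2FC -1.08, SE 0.25, FDR = 0.00689), and 4 dpi replicate 1 stood between the 2 dpi libraries and the rest of its day. Pdia4 (ERp72) was at 236, 187 and 205 CPM at 1 dpi, 201, 209 and 215 CPM at 2 dpi, 155, 72.8 and 86.7 CPM at 4 dpi and 30.3, 57.7 and 84.3 CPM at 7 dpi. Its 4 dpi replicate 1 likewise stood well above the other libraries of that day. Pdia4 was called lower from 2 to 4 dpi (log2FC -0.99, SE 0.31, FDR = 0.0321) and from 4 to 7 dpi (log2FC -0.87, SE 0.31, FDR = 0.0483), but these calls were lost in 5 and 9 of 12 cases without 1 library. The decrease from 1 to 7 dpi held in all (log2FC -1.87, SE 0.32, FDR = 0.000153). Txndc5 (ERp46) was at 57.5, 58.6 and 62.8 CPM at 1 dpi, 65.95, 60.98 and 69.8 CPM at 2 dpi, 57.1, 40.4 and 39.2 CPM at 4 dpi and 40.03, 24.0 and 38.98 CPM at 7 dpi, and passed only from 1 to 7 dpi (log2FC -0.80, SE 0.21, FDR = 0.00475). Pdia3 (ERp57), the partner of the lectin chaperones, ranged from 246 to 723 CPM and was also lower from 1 to 7 dpi (log2FC -0.81, SE 0.22, FDR = 0.0058), a call lost without 1 dpi replicate 1 (FDR = 0.053).

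**Figure D4:**
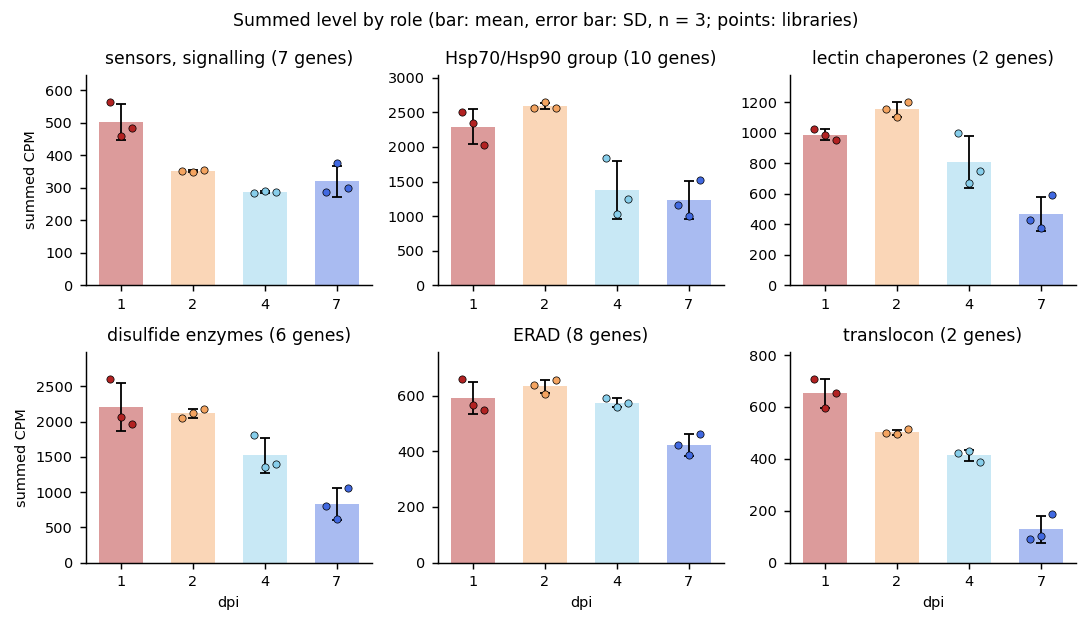
Summed CPM of the members of each role (bars are means and error bars SD of 3 libraries, points are libraries, linear axes from 0, days on the x axis). The Hsp70/Hsp90 group steps down between 2 and 4 dpi (mean 2593 to 1376 CPM), the translocon between 4 and 7 dpi (413 to 128 CPM), and the sensors and signalling genes between 1 and 2 dpi (502 to 351 CPM), where most of the difference is that of Xbp1 and Ppp1r15a.

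ERAD, which exports misfolded proteins from the ER for degradation, had no member but Selenos called lower before 7 dpi. This was 1 of 7 tested from 2 to 4 dpi (8.7% of all genes) and 0 of 7 from 1 to 2 dpi (5.6%). The 8 ERAD members summed to 592 ± 59.3 CPM (SD, n = 3) at 1 dpi, 634 ± 24.0 CPM at 2 dpi, 575 ± 15.8 CPM at 4 dpi and 423 ± 37.9 CPM at 7 dpi. Herpud1 (HERP), a ubiquitin-like scaffold of the retrotranslocation complex, ran against the others at 37.2, 25.6 and 26.9 CPM at 1 dpi, 21.1, 23.6 and 21.0 CPM at 2 dpi, 20.8, 40.3 and 30.4 CPM at 4 dpi and 46.1, 70.8 and 46.7 CPM at 7 dpi. The 7 dpi libraries were the highest 3 of the 12, and it rose from 4 to 7 dpi (log2FC 0.84, SE 0.24, FDR = 0.0193) and from 1 to 7 dpi (log2FC 0.87, SE 0.24, FDR = 0.00727). The first of these was lost without 4 dpi replicate 1, 4 dpi replicate 3 or 7 dpi replicate 2 (FDR up to 0.0916).

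Edem1, which sorts misfolded glycoproteins for disposal, was at 201, 171 and 168 CPM at 1 dpi, 220, 199 and 243 CPM at 2 dpi, 211, 208 and 214 CPM at 4 dpi and 118, 109 and 154 CPM at 7 dpi. It stood between 168 and 243 CPM up to 4 dpi and then fell (log2FC -0.73, SE 0.18, FDR = 0.0087). Syvn1 (HRD1), the central ubiquitin ligase, was at 49.04, 52.5 and 50.3 CPM at 1 dpi, 39.9, 39.4 and 49.7 CPM at 2 dpi, 35.1, 41.3 and 48.2 CPM at 4 dpi and 22.5, 26.6 and 31.7 CPM at 7 dpi, and fell at the same step (log2FC -0.62, SE 0.18, FDR = 0.0215). Its days did not overlap there, but the call was lost without 4 dpi replicate 3, 7 dpi replicate 1 or 7 dpi replicate 2 (FDR up to 0.086). Selenos, which tethers the ATPase p97 to the ER membrane, was at 70.9, 66.1 and 62.8 CPM at 1 dpi, 77.4, 65.6 and 66.9 CPM at 2 dpi, 52.6, 36.7 and 38.02 CPM at 4 dpi and 39.4, 27.5 and 40.6 CPM at 7 dpi. It fell with the chaperones from 2 to 4 dpi (log2FC -0.72, SE 0.19, FDR = 0.0155), and lost that call without 2 dpi replicate 1 or 3 or 4 dpi replicate 2 or 3. Sel1l, the adaptor of HRD1, was at 119, 112 and 96.5 CPM at 1 dpi, 127.4, 126.9 and 123 CPM at 2 dpi, 111, 79.5 and 101 CPM at 4 dpi and 81.7, 63.8 and 71.0 CPM at 7 dpi. It was lower over the whole course (log2FC -0.60, SE 0.18, FDR = 0.01), a call lost without 1 dpi replicate 1 or 2 (FDR up to 0.0725). Derl1, a channel component, ranged from 58.9 to 125 CPM and its call from 4 to 7 dpi (log2FC -0.50, SE 0.17, FDR = 0.045) was lost in 11 of 12 cases without 1 library. Derl2 ranged from 27.8 to 64.3 CPM and passed nowhere.

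Of all members Sec61a1 had the largest decrease from 4 to 7 dpi. Sec61a1, the pore through which new chains enter the ER, was at 635, 525 and 584 CPM at 1 dpi, 453, 445 and 466 CPM at 2 dpi, 382, 396 and 357 CPM at 4 dpi and 79.05, 91.6 and 168 CPM at 7 dpi. No earlier step passed, and it then fell to the lowest 3 libraries of the course (log2FC -1.74, SE 0.24, FDR = 0.000423), with 7 dpi replicate 3 above the others of its day. Sec61b, a small subunit beside the pore, was at 72.1, 71.1 and 70.1 CPM at 1 dpi, 46.5, 49.8 and 47.2 CPM at 2 dpi, 39.9, 33.6 and 29.9 CPM at 4 dpi and 13.3, 9.80 and 20.7 CPM at 7 dpi. Each day lay below the one before without overlap, and the step from 4 to 7 dpi was a DEG (log2FC -1.24, SE 0.22, FDR = 0.00168). Both calls held in each of the 12 fits without 1 library, at FDR up to 0.00212 for Sec61a1 and 0.00865 for Sec61b. The antisense gene Gm44170 covers 8.16% of the exon bases of Sec61a1 and had 0 counts.

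Other genes of the pathway, 103 listed by class and not for how they moved, of which 101 were tested, were set beside the members. Earlier results of these data were known when they were listed. From 4 to 7 dpi 22 of 32 translocation genes were lower (14.6% of all genes) and 1 was higher (Sec63, against 10.9%), with a median log2FC of -0.65, and from 1 to 7 dpi 27 were lower (23.3%) and none higher by edgeR (25.0%), none at an unadjusted P under 0.05 either, with a median of -1.12 and 20 DEGs. Sec61g, the third subunit of the channel, went from 32.5, 27.9 and 38.8 CPM at 1 dpi to 9.82, 8.07 and 9.84 CPM at 7 dpi (log2FC -1.84, SE 0.18, FDR = 1.34e-06). Ssr4, a subunit of the translocon-associated complex, stayed at 42.3, 50.96 and 35.9 CPM at 4 dpi and fell to 17.2, 12.4 and 17.98 CPM at 7 dpi (log2FC -1.44, SE 0.19, FDR = 0.000321). The signal peptidase subunit Spcs3 fell at the same step (log2FC -1.08, SE 0.20, FDR = 0.00181). Shorter genes were lower at this step in general: the median log2FC from 4 to 7 dpi was -0.19 for the 3573 genes of shortest exon length and 0.23 for the 3569 of longest, out of 4 classes of near equal size. Translocation genes had medians from -0.85 to -0.62 in these classes, and the 4 among the longest genes had -0.80. The members had medians from -0.50 to -0.35 in the same classes. The part of exon length in these decreases was not tested.

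Of the 30 other folding genes 13 were lower and 5 higher from 1 to 7 dpi, where 23.3% of all genes were lower and 25.0% higher. Ganab, the glucosidase II subunit that trims glycans for the lectin chaperones, was lower (log2FC -1.43, SE 0.18, FDR = 1.29e-05), as were the reductase Dnajc10 (log2FC -1.26, SE 0.18, FDR = 3.14e-05) and the thiol-retention protein Erp44 (log2FC -1.36, SE 0.20, FDR = 5.24e-05). Fkbp10 and Fkbp14, chosen after their values were seen, rose from 1 to 7 dpi, from 0.896 to 2.90 CPM and from 0.0262 to 0.602 CPM in the mean, and are prolyl isomerases known for collagen folding. Of 23 other ERAD genes 8 were lower and 3 higher in the same comparison, beside the same 23.3% and 25.0% of all genes. The ATPase p97 (Vcp) was lower (log2FC -1.42, SE 0.24, FDR = 0.000143), as was the ubiquitin-conjugating enzyme Ube2j1 (log2FC -1.48, SE 0.21, FDR = 3.72e-05), while Herpud2 was higher (log2FC 1.30, SE 0.21, FDR = 0.000117), as its relative Herpud1 was.

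Of 16 other signalling genes tested, 8 were lower by edgeR from 1 to 7 dpi (23.3% of all genes) and none higher (25.0%), none at an unadjusted P under 0.05 either. Atf4, the transcription factor downstream of PERK, was at 109, 73.8 and 73.9 CPM at 1 dpi, 51.4, 60.9 and 61.6 CPM at 2 dpi, 35.8, 25.4 and 28.8 CPM at 4 dpi and 17.0, 23.04 and 22.4 CPM at 7 dpi. Its level fell from 2 to 4 dpi (log2FC -0.95, SE 0.20, FDR = 0.00399) and over the whole course (log2FC -2.04, SE 0.21, FDR = 1.77e-06), while Ddit3 and Eif2ak3 rose. Eif2s1, which encodes eIF2α, was lower as well (log2FC -1.66, SE 0.27, FDR = 0.000114), and so was the apoptosis effector Bax (log2FC -1.38, SE 0.28, FDR = 0.000763). ATF4 is regulated largely by translation, which these mRNA counts do not measure. Trib3, a target of ATF4 and CHOP that was chosen after its values were seen, stayed at 0.0996 to 1.89 CPM.

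**Figure D5:**
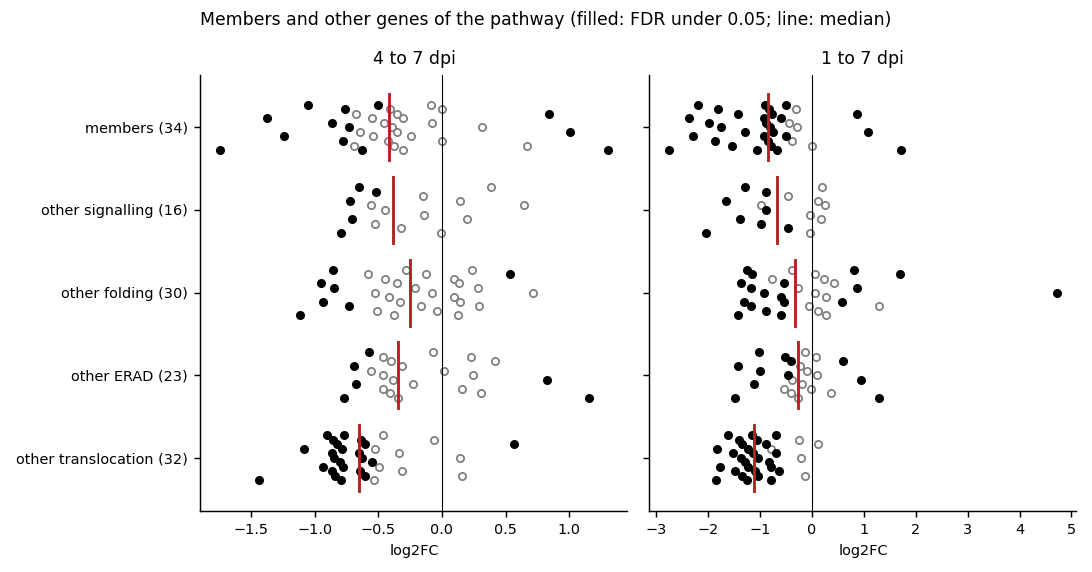
Log2FC of the 34 members and of 101 other pathway genes by class, from 4 to 7 dpi (left) and from 1 to 7 dpi (right), with 1 point per gene, filled at FDR under 0.05, and a red line at each median. The translocation genes crowd below 0 in both panels (medians -0.65 and -1.12), and the folding and ERAD classes spread to both sides.

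Within a day the members tended to be high or low in the same libraries. In 1 dpi replicate 1, 21 of the 34 members were the highest of the 3 libraries of that day, as were 36.4% of all genes tested. In 4 dpi replicate 1, 25 of the 34 members were the highest (39.3% of all genes), and in 4 dpi replicate 2, 20 were the lowest (35.9%). In 7 dpi replicate 3 it was 20 members (35.5% of all genes), and 7 dpi replicate 2 was the lowest in 22 (35.2%). The 2 dpi libraries lay closest together, with summed member levels of 7253, 7330 and 7472 CPM, against 8065, 7029 and 6621 CPM at 1 dpi, 5945, 4339 and 4652 CPM at 4 dpi and 3203, 2857 and 4136 CPM at 7 dpi. The mitochondrial share of the counts left without the unnamed gene, often read as a sign of RNA quality, differed between the same libraries. It was 9.43%, 8.51% and 10.2% at 1 dpi, 5.36%, 5.16% and 4.77% at 2 dpi, 6.26%, 12.5% and 11.4% at 4 dpi and 6.62%, 18.9% and 9.47% at 7 dpi. It was thus lowest at 2 dpi, where 17 members had their highest mean (19.8% of all genes tested). It was lower in 4 dpi replicate 1 than in the other libraries of that day, and highest of all in 7 dpi replicate 2. At 7 dpi replicate 1 had the lowest share of its day while the members were highest in replicate 3. This share cannot tell RNA quality from a change in the cells themselves. The part of either in the members' levels was not tested.

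Markers of other cells changed over the same days. Fibroblast markers (6 genes, all detected) summed to 14.4 to 50.6 CPM at 1 dpi, 27.4 to 43.3 at 2 dpi, 132 to 256 at 4 dpi and 409 to 831 at 7 dpi, and muscle fibre markers (6 genes, all detected) rose from 4.34 to 12.7 CPM at 1 dpi to 30.2 to 80.1 CPM at 7 dpi. Monocyte markers (5 genes, all detected) went the other way, from 3162 to 4769 CPM at 1 dpi to 159 to 272 CPM at 7 dpi. B and plasma cell markers went from 7.07 to 16.8 CPM to 126 to 176 CPM, nearly all of it Ighm, with the plasma cell marker Mzb1 at 0 in all 12 libraries and Jchain at 0.226 CPM or less. Neutrophil markers (9 genes, of which 8 were detected at 1 dpi and 5 at 7 dpi) went from 131 to 204 CPM at 1 dpi to 55.2 to 64.6 at 2 dpi, 63.4 to 82.2 at 4 dpi and 43.5 to 52.7 at 7 dpi, with Camp at 0 on every day and Ly6g at 0 from 2 dpi on. Most of the later sums was Csf3r, at 41.2 to 65.9 CPM at 4 dpi and 41.4 to 51.4 CPM at 7 dpi. S100a8, S100a9, Retnlg and Cxcr2 were each at 1.09 CPM or less on these days. Plasmacytoid dendritic cell markers stayed at 6.99 CPM or less. The part of these cells in the members' levels was not tested. In bulk samples fewer cells with a transcript and less of it per cell cannot be told apart.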

How the data were processed

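Macrophage RNA was sequenced in 12 Smart-seq2/3 libraries, 3 per day. Per the labels and methods, the authors used Trim Galore 0.6.6 for trimming, HISAT2 2.2.1 for alignment to GRCm39 and Subread 2.0.1 for counting, and the values analysed are their deposited raw counts of reads for each gene. No strand is kept. All 12 columns were used, and 0 columns were left out. Between 76.6% and 85.5% of counts from 1 to 20 in a library were even, so read pairs may have been counted as 2.

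Symbols and exon lengths came from GENCODE M21 (GRCm38), joined by Ensembl ID, and 3333 of 55414 IDs had no symbol. Ddit3 names 2 IDs, and the one with counts was used. In R 4.3.3, edgeR 4.0.16 was run on the counts: filterByExpr by day (14310 genes), TMM, 1 coefficient per day over all 12 libraries, the quasi-likelihood F test with legacy=TRUE, and Benjamini-Hochberg adjustment over all genes per comparison. The SE of a log2FC is its size over the root of F. The method was tested on simulated counts for the step from 2 to 4 dpi only, with 2-fold and 4-fold changes. Smaller changes and changes at the other steps were not simulated. The members, the lists, the motifs and the comparisons were chosen with earlier results of these data known. Values in every library are given for each member that was a DEG in at least 1 comparison and for the 12 further members of smallest P over the 4 days. Other pathway genes are named where a DEG, at most 3 per class by that P, and exceptions are marked. Alternatives were RLE factors, no filter, CPM above 1 in 3 libraries, legacy=FALSE, DESeq2 1.42.0, limma-voom (limma 3.58.1), the 6 libraries of 2 days alone, the unnamed gene left out, the replicate number as a block, a log2FC threshold, and each library left out. Promoters are RefSeq's, 250 bases before the start, without chromosome 18. Depth limits the lowest members, Derl3 with 0 to 18 counts per library and Ddit3 with 21 to 254. Markers of cell types not given in the report were conventional dendritic cell (2.48 to 22.4 CPM summed), T and NK cell (0 to 0.955), eosinophil (0.0605 to 1.15), endothelial (25.3 to 85.5) and muscle progenitor (0 to 3.56). The CUT&Tag data of the study were not used here.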

Additional observations from a re-analysis of the deposited data

How the results depend on the processing

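No called member changed direction under any alternative. The median log2FC of the members from 1 to 2 dpi (0.03) was too near 0 for its sign to be read, and its direction was not judged. With the threshold on the fold change the lower members were 0 from 1 to 2 dpi, 6 from 2 to 4, 4 from 4 to 7 and 12 from 1 to 7 dpi, as this rule is stricter. Without a filter 1 member was higher from 1 to 2 dpi. With only the 6 libraries compared 2 were higher and 6 lower from 1 to 2 dpi, and 3 lower from 4 to 7 dpi; the cause was not tested. Leaving out 1 library at a time, the lower members ranged from 0 to 3 (1 to 2 dpi), 5 to 14 (2 to 4) and 5 to 14 (4 to 7), and the higher members from 0 to 1 (1 to 2 dpi, 1 without 7 dpi replicate 2), 0 to 1 (2 to 4) and 1 to 3 (4 to 7). Of the calls, 12 of 12 from 2 to 4 dpi, 5 of 13 from 4 to 7 and 27 of 29 from 1 to 7 dpi were kept under the 9 alternatives that leave out no library and keep the FDR rule, and 5, 6 and 22 under all that leave one out. The 4 to 7 dpi calls lost under those 9 alternatives were Calr, Derl1, Edem1, Herpud1, Hyou1, Manf, Pdia4 and Syvn1. Of these, Calr, Edem1, Herpud1, Hyou1 and Syvn1 were lost only with the 6 libraries compared. With 1 library left out, the calls lost at this step were Ddit3, Derl1, Herpud1, Hyou1, Manf, Pdia4 and Syvn1. No scaling moved the median of all genes by over 0.1.

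Replicate numbers did not pair the libraries: deviations of libraries with the same number correlated at -0.133 to 0.128 (18 pairs) and with other numbers at -0.221 to 0.265 (36 pairs). With the replicate number as a block, lower members were 2, 12, 9 and 26 in the 4 comparisons and 30 members differed over the 4 days.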
